A study of Mus musculus with 6 samples.

Results

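Immune checkpoint ligands are the surface or secreted proteins that tumor and myeloid cells present to T cells and NK cells. The 10 genes described here are the PD-1 ligands Cd274 (PD-L1) and Pdcd1lg2 (PD-L2), the CD28 and CTLA-4 ligands Cd80 and Cd86, the nectin-like TIGIT and CD226 ligands Pvr (CD155) and Nectin2 (CD112), the TIM-3 ligand Lgals9 (galectin-9), the BTLA and CD160 ligand Tnfrsf14 (HVEM), and Vsir (VISTA) and Cd276 (B7-H3). They were chosen by symbol and matched through the GRCm38 annotation to the 54532 Ensembl gene IDs of the tables, in which 10 of 10 were found. RNAseq covered 6 mammary tumors of NeuT/ATTAC mice, 3 given isotype-specific IgG and 3 given an anti-PD-1 mAb. All 6 mice carried an MMTV-driven Erbb2 transgene, which makes mammary epithelium tumorigenic, and the adipocyte-specific FAT-ATTAC transgene, which the dimerizer AP20187 activates to induce fibrosis. AP20187 was injected at 0.4 mg/kg in all mice, starting at 6 weeks (triweekly in the paper's methods, biweekly in the sample labels), and 100 μg of antibody followed 2 times per week, starting at 8 weeks. The strain was FVB, into which the C57BL/6 FAT-ATTAC line had been crossed. No group without AP20187 or without antibody was analysed here, so that the comparison is between 2 antibodies in fibrotic tumors. The labels number the tumors 1 to 3 in each group without saying how the animals were chosen, and a legend of the paper speaks of pooled RNA, so that p-values measure the spread between these libraries.

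In T cells, PD-1 recruits phosphatases that dampen signals from the antigen receptor and CD28 when it meets PD-L1 or PD-L2. CD80 and CD86 stimulate through CD28 and inhibit through CTLA-4, and CD155 and CD112 stimulate through CD226 and inhibit through TIGIT, and CD112 also inhibits through PVRIG. PD-L1 is inducible by interferon-gamma on many cell types, whereas PD-L2 is found mainly on dendritic cells and macrophages and is also inducible by interleukin-4. Antibody against PD-1 blocks the receptor, and the question here was whether RNA of the ligands differed between the treated groups.

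The PD-1 ligand genes are neighbors on mouse chromosome 19, with RefSeq promoter windows 43481 bases apart, and Lgals9 had the highest level of the 10. Their promoter sequences are shown because the neighbors differed in detection, with Cd274 measured and Pdcd1lg2 at 0 in every tumor, and because interferon-responsive letters were searched in all of them. The sequences are the RefSeq windows of GRCm38.p6 from 250 bases before to 50 bases after the RefSeq start, read on the gene's own strand, and 8 of the 10 genes, all but Pvr and Cd86, were matched to a window. RefSeq starts can differ from the gene starts printed below. The Cd80 window, chr16:38458683-38458982, lies inside the gene, which starts at 38455561. The windows of Nectin2, Tnfrsf14 and Cd276 also lie inside the printed spans of these genes. Capitals mark matches to the letters of the interferon-stimulated response element, GAAA followed by any 2 bases and GAAA again, on either strand.
Cd274 at chr19:29367188-29367487, plus strand: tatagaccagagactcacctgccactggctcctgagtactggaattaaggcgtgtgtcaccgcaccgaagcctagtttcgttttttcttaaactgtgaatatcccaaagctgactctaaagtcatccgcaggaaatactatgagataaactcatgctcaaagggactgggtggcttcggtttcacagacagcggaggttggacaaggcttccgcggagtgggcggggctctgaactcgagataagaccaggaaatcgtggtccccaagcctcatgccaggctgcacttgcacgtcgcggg
Pdcd1lg2 at chr19:29410669-29410968, plus strand: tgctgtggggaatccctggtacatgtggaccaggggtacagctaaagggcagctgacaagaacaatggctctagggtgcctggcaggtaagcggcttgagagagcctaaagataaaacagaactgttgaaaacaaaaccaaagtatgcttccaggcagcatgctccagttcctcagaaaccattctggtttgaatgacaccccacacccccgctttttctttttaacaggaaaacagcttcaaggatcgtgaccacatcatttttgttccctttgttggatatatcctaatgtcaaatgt
Lgals9 at chr11:78984875-78985174, minus strand: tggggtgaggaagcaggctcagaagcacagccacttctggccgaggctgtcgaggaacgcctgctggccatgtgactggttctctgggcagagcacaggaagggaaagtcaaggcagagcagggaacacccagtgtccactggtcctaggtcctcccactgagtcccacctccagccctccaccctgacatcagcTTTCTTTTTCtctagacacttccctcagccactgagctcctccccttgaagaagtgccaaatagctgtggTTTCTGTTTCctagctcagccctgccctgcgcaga

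These response element letters occurred 2 times in the Lgals9 window, 1 time in that of Tnfrsf14 and in none of the other 6 windows, against 3.44% of 32851 RefSeq promoter windows of the same length that held at least 1 match. An NF-kB site, GGGA and TTCC with 2 bases between them, occurred in none of the 8 windows and in 1.47% of all windows. The stricter interferon regulatory factor element, in which GT stands between both GAAA runs and which is contained in the response element, occurred in none of the 8 and in 0.253% of all windows. The letters TATAAA occurred in the Cd80 window and in 13.6% of all windows. No match says only that these letters are not in this window. A match is a description of the letters, and a window of 300 bases leaves out enhancers and other starts.

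The depth implied by the smallest step between FPKM values, which is worth 1 read, was between 22009900 and 25596200 fragments per tumor. Of the mammary epithelial markers, Epcam, an epithelial adhesion protein, lay between 690 and 1150 FPKM and Erbb2 between 20.3 and 31.4 FPKM, both without overlap and higher in anti-PD-1 tumors (limma adjusted p = 0.462 and 0.424). Of the 10 epithelial markers 4 had no overlap of the groups, against 18.1% of all genes, and 2 were at an unadjusted p under 0.05, against 12.3%. The keratin gene Krt7 was higher in each anti-PD-1 tumor, with 23.4, 17.7 and 8.68 FPKM in IgG tumors and 33.6, 43.7 and 24.9 FPKM in anti-PD-1 tumors (log2 fold change 1.07, limma adjusted p = 0.362). Krt19, another keratin gene, had the opposite direction, with 7.84, 77.9 and 7.46 FPKM in IgG tumors and 4.09, 5.27 and 1.70 FPKM in anti-PD-1 tumors (log2 fold change -2.03, limma adjusted p = 0.404). T cell markers were at most 1.82 FPKM in any tumor. Cd3e, the CD3 epsilon chain, lies on chromosome 9 and had 3, 30 and 25 reads across IgG tumors 1 to 3 against 7, 0 and 1 reads across anti-PD-1 tumors 1 to 3. Scaling factors lay between 1.00 and 1.01. Tumor profiles correlated at r = 0.892 to 0.958 over genes, which are not independent replicates. In genes of chromosomes 4 and 9, IgG replicate 1 was closer to the anti-PD-1 tumors than to the other IgG tumors. In bulk RNA, fewer cells of a type and less RNA per cell cannot be told apart.

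Levels of the ligands spanned a wide range, from Lgals9 at a mean of 50.4 FPKM over the 6 tumors to Pdcd1lg2 at 0. FPKM is fragments per kilobase of exon, scaled to the depth of the library, so levels of different genes can be ordered within the limits of that scaling. The order of mean FPKM was Lgals9 (50.4), Nectin2 (22.5), Vsir (12.3), Cd276 (6.28), Pvr (4.99), Tnfrsf14 (4.19), Cd274 (1.47), Cd86 (1.43), Cd80 (0.222) and Pdcd1lg2 (0). Lgals9 lay above Nectin2, Nectin2 above Vsir, Cd86 above Cd80 and Cd80 above Pdcd1lg2 with no overlap of the tumors. Vsir lay above Cd276 and Tnfrsf14 above Cd274 within each of the 6 tumors, although the ranges overlapped. Cd276 was above Pvr in 3 of 6 tumors, and Pvr above Tnfrsf14 in 4 of 6. Cd274 and Cd86 had nearly equal means, with Cd274 higher in 3 of 6 tumors. Lgals9, Nectin2 and Vsir together carried between 75.4% and 88.9% of the summed FPKM of the 10 genes in single tumors.

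**Figure D1:**
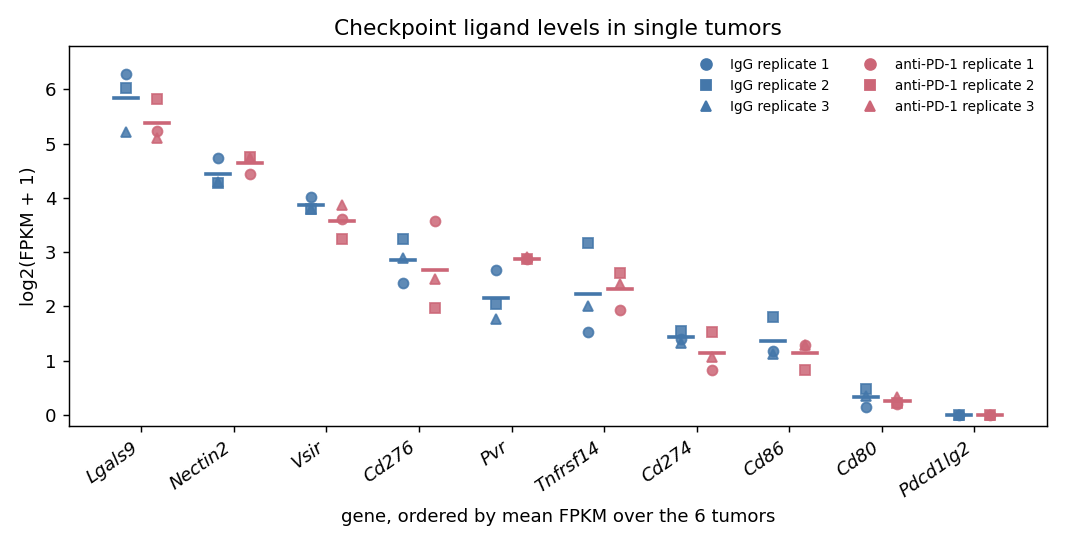
Levels of the 10 checkpoint ligands as log2(FPKM + 1) on the vertical axis, with genes ordered by mean FPKM; each point is 1 tumor (IgG blue, anti-PD-1 red, shape by replicate number) and each bar the mean of 3 tumors on that scale. The 3 anti-PD-1 tumors lie together above the IgG tumors in Pvr, and Pdcd1lg2 is at 0 in all 6.

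The groups were compared by log2(FPKM + 1) with limma (two-sided, Benjamini-Hochberg adjustment over 15069 genes with a mean of at least 0.5 FPKM). Of the 10 ligands 8 passed this filter, and Cd80 and Pdcd1lg2 did not. None of the 8 had a limma adjusted p under 0.05, and 0% of the 15069 genes did. At an unadjusted p under 0.05, 1 of the 8 (Pvr) was called, against 12.3% of all genes in either direction and 6.22% in the higher direction. A share of 1 in 8 is near that background. With limma's voom on recovered reads, 1 of the 8 was at an unadjusted p under 0.05 and 0 at an adjusted p under 0.05, with 1 of all 14386 genes at an adjusted p under 0.05. The groups did not overlap in 1 of the 8 genes, again Pvr, against 18.1% of all genes. Of the 8 genes, 3 had a higher and 5 a lower mean log2 level in anti-PD-1 tumors, and by mean FPKM Tnfrsf14 was on the lower side instead. Their log2 fold changes had a median of -0.20, against 0.01 over all genes tested.

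**Figure D2:**
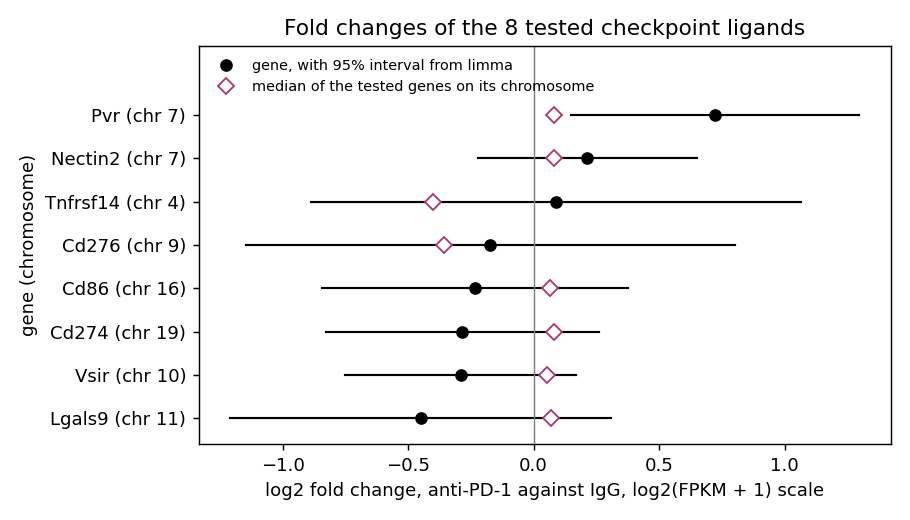
Log2 fold change of the 8 tested checkpoint ligands, anti-PD-1 against IgG (horizontal axis, log2(FPKM + 1) scale), with the 95% interval from limma (line) and the median of all tested genes on the same chromosome (open diamond). The interval of Pvr, from 0.15 to 1.30, lies above 0, and the intervals of the other 7 genes include 0.

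Cd274 encodes PD-L1, the broadly expressed PD-1 ligand (ENSMUSG00000016496, protein-coding, chromosome 19 from 29367455 to 29388095, plus strand). Cd274 had 1.64, 1.93 and 1.50 FPKM across IgG tumors 1 to 3 against 0.766, 1.89 and 1.09 FPKM across anti-PD-1 tumors 1 to 3. These values rested on 131, 168 and 133 reads in IgG and 71, 166 and 94 reads in anti-PD-1 tumors. Anti-PD-1 replicates 1 and 3 were below every IgG tumor, and anti-PD-1 replicate 2 lay among them. Cd274 averaged 1.69 ± 0.219 FPKM (SD, n = 3) with IgG and 1.25 ± 0.578 FPKM (SD, n = 3) with anti-PD-1. Cd274 had a log2 fold change of -0.28 (SE 0.23, 95% interval -0.83 to 0.26, adjusted p = 0.634 from limma). The two-sided exact permutation test gave p = 0.3, where 0.1 is the smallest that 3 tumors against 3 allow. The log2 fold change ranged from -0.48 without anti-PD-1 replicate 2 to -0.13 without anti-PD-1 replicate 1. With a pseudocount of 0.1 it was -0.48, and with voom on recovered reads -0.53, since the pseudocount of 1 shrinks changes of genes at such levels.

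Pdcd1lg2 encodes PD-L2, the PD-1 ligand of antigen-presenting cells (ENSMUSG00000016498, protein-coding, chromosome 19 from 29410919 to 29471161, plus strand). Pdcd1lg2 was listed at 0 in each of the 6 tumors. With 0 reads counted, up to 3 reads are allowed, which would be between 0.0598 and 0.0695 FPKM in these libraries, for counting error only. In the same tumors Cd274 was at 12.8 to 30.3 times that limit. Of 21995 protein-coding gene IDs, 21.3% were at 0 in all 6 tumors, 12 of 12 housekeeping genes were above 0 in every tumor, and 2 of 80 ribosomal protein genes (the paralogs Rpl39l and Rpl10l) were at 0 in at least 1 tumor. The antisense gene A930007I19Rik overlaps Pdcd1lg2, and strand handling of the counts is not given in the sources used here. With no read in either group, Pdcd1lg2 was not compared between them.

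Cd80 (B7-1) and Cd86 (B7-2) are the paired costimulatory ligands of antigen-presenting cells, both on chromosome 16. Cd80 (ENSMUSG00000075122, from 38455561 to 38496335) had 0.0982, 0.394 and 0.277 FPKM in IgG and 0.148, 0.167 and 0.250 FPKM in anti-PD-1 tumors, from 8 to 35 reads per tumor. The highest and the lowest Cd80 values were both in IgG tumors, so the groups overlapped fully, and Cd80 was under the filter. Tested without the filter, Cd80 had a log2 fold change of -0.07 (95% interval -0.32 to 0.18, limma adjusted p = 0.817), which understates any change at this level. Cd86 (ENSMUSG00000022901, from 36603869 to 36666081) had 1.27, 2.50 and 1.16 FPKM in IgG and 1.43, 0.777 and 1.43 FPKM in anti-PD-1 tumors. IgG replicate 2 was highest and anti-PD-1 replicate 2 lowest, with the other 4 tumors close together. Cd86 had a log2 fold change of -0.23 (SE 0.26, 95% interval -0.84 to 0.38, adjusted p = 0.738 from limma), and it was -0.01 without IgG replicate 2. With a pseudocount of 0.1 it was -0.37 and with voom -0.40.

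Pvr encodes CD155, the shared ligand of CD226, TIGIT and CD96, and it was the only one of the tested ligands without overlap of the groups (ENSMUSG00000040511, protein-coding, chromosome 7 from 19903578 to 19921160, minus strand). Pvr had 5.38, 3.11 and 2.40 FPKM across IgG tumors 1 to 3 against 6.29, 6.28 and 6.48 FPKM across anti-PD-1 tumors 1 to 3, from 358 to 986 reads. Every anti-PD-1 tumor was above every IgG tumor, and the anti-PD-1 tumors were tightly grouped while the IgG tumors were spread, with IgG replicate 1 nearest to them. The means were 6.35 ± 0.110 (SD, n = 3) and 3.63 ± 1.56 (SD, n = 3) FPKM. On the log2 scale Pvr was 0.72 higher (SE 0.24, 95% interval 0.15 to 1.30, unadjusted p = 0.0205 and adjusted p = 0.359 from limma), so that Pvr did not pass the test over all genes. The exact permutation test gave p = 0.1, the smallest that 3 tumors against 3 allow. Without IgG replicate 2, IgG replicate 3 or anti-PD-1 replicate 3 the log2 fold change of Pvr was 0.66, 0.52 and 0.71, with an unadjusted p of 0.0603, 0.0605 and 0.0532 in limma. Without IgG replicate 1 it was 0.98 (unadjusted p = 0.00149 and adjusted p = 0.102 from limma). The antisense genes Gm16184 and Gm16251 overlap Pvr.

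Nectin2 encodes CD112, an adhesion molecule that shares CD226 and TIGIT with Pvr and also binds PVRIG, and lies on the same chromosome (ENSMUSG00000062300, chromosome 7 from 19716644 to 19750483, minus strand). Nectin2 had 25.6, 18.4 and 18.6 FPKM in IgG and 20.8, 25.9 and 25.7 FPKM in anti-PD-1 tumors. The groups overlapped through IgG replicate 1, which was close to the upper 2 anti-PD-1 tumors. Nectin2 had a log2 fold change of 0.21 (SE 0.19, 95% interval -0.22 to 0.65, adjusted p = 0.657 from limma). It was 0.36 without IgG replicate 1 and 0.14 without IgG replicates 2 or 3 in turn. The antisense gene Gm20512 overlaps Nectin2.

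Lgals9 encodes galectin-9, a secreted lectin that binds TIM-3 (ENSMUSG00000001123, protein-coding, chromosome 11 from 78962974 to 78984946, minus strand). Lgals9 had 76.9, 64.0 and 35.9 FPKM in IgG and 36.4, 55.7 and 33.2 FPKM in anti-PD-1 tumors, from 1685 to 3618 reads. IgG replicates 1 and 2 were above all other tumors, and IgG replicate 3 lay among the anti-PD-1 tumors. Lgals9 had a log2 fold change of -0.45 (SE 0.32, 95% interval -1.21 to 0.31, adjusted p = 0.598 from limma). It was -0.77 without IgG replicate 3 (unadjusted p = 0.0239 and adjusted p = 0.484 from limma) and -0.23 without IgG replicate 1. The interferon-responsive letters of the Lgals9 window stand beside these values without any test that joins them.

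Tnfrsf14 encodes HVEM, which engages BTLA and CD160 as inhibitory receptors and the cytokine LIGHT (ENSMUSG00000042333, chromosome 4 from 154921933 to 154928563, minus strand). Tnfrsf14 had 1.90, 7.94 and 3.02 FPKM in IgG and 2.80, 5.13 and 4.33 FPKM in anti-PD-1 tumors. Both the lowest and the highest value were in IgG tumors, so that the groups overlapped fully. Tnfrsf14 averaged 4.29 ± 3.21 FPKM (SD, n = 3) with IgG and 4.09 ± 1.19 FPKM (SD, n = 3) with anti-PD-1, a direction opposite to that of the log2 values. Tnfrsf14 had a log2 fold change of 0.09 (SE 0.42, 95% interval -0.89 to 1.06, adjusted p = 0.948 from limma), and it was 0.55 without IgG replicate 2 and -0.26 without IgG replicate 1. The 926 tested genes of chromosome 4 had a median log2 fold change of -0.40, and 83.6% of them were lower in anti-PD-1 tumors, so that Tnfrsf14 stood 0.49 above the median of its chromosome.

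Vsir encodes VISTA, a checkpoint protein of myeloid cells and T cells that acts as ligand and receptor (ENSMUSG00000020101, chromosome 10 from 60346851 to 60372684, plus strand). Vsir had 15.2, 12.8 and 12.9 FPKM in IgG and 11.2, 8.46 and 13.5 FPKM in anti-PD-1 tumors. Anti-PD-1 replicates 1 and 2 were below every IgG tumor, and anti-PD-1 replicate 3 was above 2 of them. Vsir had a log2 fold change of -0.29 (SE 0.20, 95% interval -0.75 to 0.17, adjusted p = 0.574 from limma). It was -0.12 without anti-PD-1 replicate 2 and -0.43 without anti-PD-1 replicate 3. Cdh23 overlaps Vsir on the opposite strand.

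Cd276 encodes B7-H3, a member of the B7 family expressed by tumor and stromal cells (ENSMUSG00000035914, chromosome 9 from 58524298 to 58555437, minus strand). Cd276 had 4.40, 8.44 and 6.43 FPKM in IgG and 10.8, 2.92 and 4.65 FPKM in anti-PD-1 tumors. The highest and the lowest values were both in anti-PD-1 tumors, replicates 1 and 2. Cd276 had a log2 fold change of -0.17 (SE 0.41, 95% interval -1.15 to 0.80, adjusted p = 0.887 from limma). It was -0.62 without anti-PD-1 replicate 1 and 0.18 without anti-PD-1 replicate 2. On chromosome 9 the 798 tested genes had a median of -0.36, and 82.3% of them were lower in anti-PD-1 tumors. In single tumors, the median of the chromosome 9 genes relative to the mean of the 6 tumors was -0.13, 0.31 and 0.32 for the IgG tumors against -0.05, -0.26 and -0.27 for the anti-PD-1 tumors. The part of the chromosome in the values of Cd276 and Tnfrsf14 was not tested. The antisense gene Gm10657 overlaps Cd276.

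The receptors and binding partners of these ligands had means of at most 4.02 FPKM. Of a list of 14, 5 passed the filter (Rgmb, Btla, Havcr2, Selplg and Igsf11), with a higher mean log2 level after anti-PD-1 in 2 and a lower one in 3, and 0 were at an unadjusted p under 0.05. Pdcd1, which encodes PD-1 and is the target of the antibody, had 3, 35 and 24 reads in IgG and 16, 47 and 14 reads in anti-PD-1 tumors, with 0.0706, 0.756 and 0.509 FPKM against 0.324, 1.00 and 0.305 FPKM. The groups overlapped in Pdcd1, with the lowest tumor in the IgG and the highest in the anti-PD-1 group.

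Tigit, the inhibitory receptor of Pvr and Nectin2, had 1, 8 and 9 reads in IgG and 0 reads in each of the 3 anti-PD-1 tumors (two-sided exact permutation test on log2 values, p = 0.1). Cd226, the activating receptor for the same ligands, had 0.116, 0.884 and 0.487 FPKM in IgG and 0.0995, 0.0525 and 0.250 FPKM in anti-PD-1 tumors, so that IgG replicates 2 and 3 were highest and the groups overlapped. Cd28 had at most 12 and Ctla4, its inhibitory counterpart, at most 9 reads in any tumor. Tested without the filter, Tigit had a log2 fold change of -0.33 (unadjusted p = 0.0258 and adjusted p = 0.575 from limma), in a fit with 8.01% of all genes at an unadjusted p under 0.05. At this level the pseudocount of 1 shrinks the change. In the 3 anti-PD-1 tumors Cd3e had 7, 0 and 1 reads, whereas Cd2, another T cell surface marker, had 7, 21 and 11 reads, against 2, 9 and 14 in IgG tumors. Cd3d, a CD3 chain gene also on chromosome 9, had 3, 0 and 3 reads in anti-PD-1 tumors, against 12, 46 and 9 in IgG tumors. By mean FPKM, 4 of the 10 T cell markers were higher and 6 lower after anti-PD-1. The part of T cell content in the Tigit values was not tested.

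Among the receptors with measurable levels, Havcr2 (TIM-3) had 2.44, 4.18 and 2.38 FPKM in IgG and 2.70, 1.83 and 3.53 FPKM in anti-PD-1 tumors. Its log2 fold change was -0.11 (95% interval -0.71 to 0.49, limma adjusted p = 0.882). Btla, the receptor of HVEM, had 2.68, 3.68 and 1.76 FPKM in IgG and 1.96, 4.48 and 3.71 FPKM in anti-PD-1 tumors (log2 fold change 0.23, limma adjusted p = 0.779). In both receptors the groups overlapped. Rgmb, a BMP co-receptor that also binds PD-L2, had the highest mean of the list at 4.02 FPKM, with a log2 fold change of -0.01 (95% interval -0.40 to 0.38, limma adjusted p = 0.987). Selplg, a selectin ligand that binds VISTA at acidic pH, and Igsf11, an adhesion molecule that binds VISTA, had log2 fold changes of -0.12 and 0.29 (limma adjusted p = 0.869 and 0.621).

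**Figure D3:**
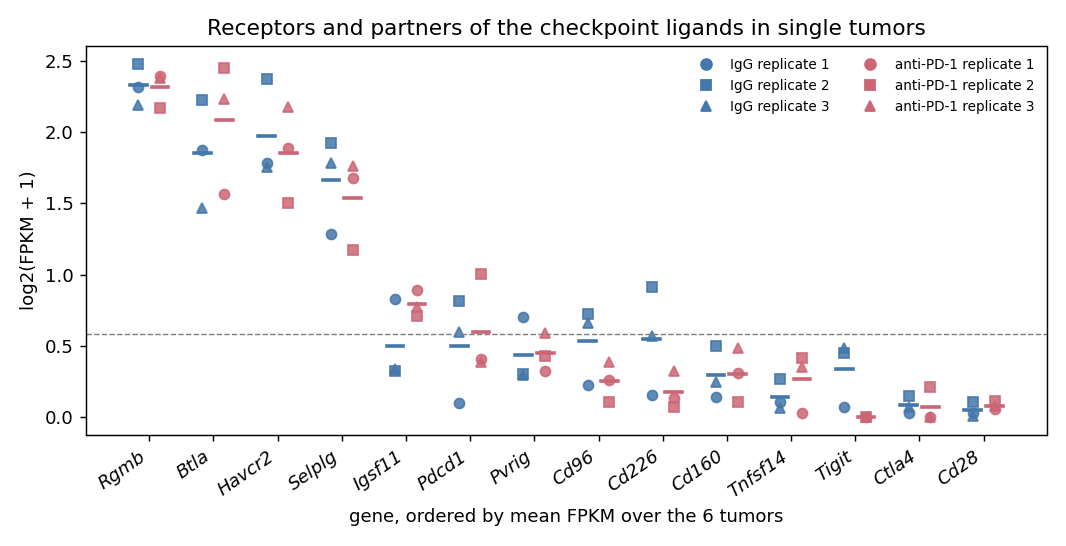
Levels of the 14 receptors and binding partners of the checkpoint ligands as log2(FPKM + 1) on the vertical axis, with genes ordered by mean FPKM; each point is 1 tumor (IgG blue, anti-PD-1 red, shape by replicate number), each bar the mean of 3 tumors, and the dashed line the filter at 0.5 FPKM. Tigit is at 0 in the 3 anti-PD-1 tumors, and Cd28 and Ctla4 are close to 0 in all 6.

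Of 17 other co-signaling ligands, 12 passed the filter, 6 with a higher and 6 with a lower mean log2 level in anti-PD-1 tumors. Of these 12, 4 (33.3%, against 12.3% of all genes tested) were at an unadjusted p under 0.05 (Vtcn1, Cd200 and Lgals3 higher, H2-T23 lower), 2 had no overlap of the groups (against 18.1% of all genes), and 0 were at an adjusted p under 0.05 in limma, and their median log2 fold change was 0.05. That count was 4 without IgG replicate 1, 2 without IgG replicate 2, 1 without IgG replicate 3 or either of anti-PD-1 replicates 1 and 2, and 0 without anti-PD-1 replicate 3, while the share of all genes in these fits ranged from 6.42% to 17.8%. Vtcn1 (B7-H4), an inhibitory B7 protein of epithelial cells, had 19.4, 13.5 and 2.42 FPKM in IgG and 23.4, 34.0 and 28.5 FPKM in anti-PD-1 tumors, so that the groups did not overlap. Vtcn1 had a log2 fold change of 1.55 (SE 0.61, adjusted p = 0.390 from limma). Cd200, which restrains myeloid cells through its receptor, had 51.6, 44.8 and 20.8 FPKM in IgG and 54.6, 72.5 and 67.9 FPKM in anti-PD-1 tumors, again without overlap (log2 fold change 0.81, limma adjusted p = 0.399). In both genes IgG replicate 3 was lowest.

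Lgals3, the galectin-3 gene and the gene with the highest mean of that list, had 149, 32.2 and 20.6 FPKM in IgG and 106, 159 and 165 FPKM in anti-PD-1 tumors. IgG replicate 1 lay within the anti-PD-1 range, for a log2 fold change of 1.58 (limma adjusted p = 0.405). H2-T23, the Qa-1 molecule that engages NKG2A on NK and T cells, had 14.2, 24.1 and 20.5 FPKM in IgG and 8.67, 16.2 and 9.41 FPKM in anti-PD-1 tumors (log2 fold change -0.74, limma adjusted p = 0.380), with anti-PD-1 replicate 2 among the IgG tumors. Ceacam1, an inhibitory adhesion molecule with a mean of 76.5 FPKM, had a log2 fold change of 0.14 (limma adjusted p = 0.848).

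Of 18 genes for the cytokine signaling, transcription factors and protein partners that control PD-L1 and PD-L2, 17 passed the filter. Of these, 6 had a higher and 11 a lower mean log2 level in anti-PD-1 tumors, their median was -0.06, and 1 (Jak1) was at an unadjusted p under 0.05, a share of 5.88% against 12.3% of all genes. That count was 2 with quantile normalization, with voom, and without IgG replicate 1 or anti-PD-1 replicate 1. Ifng, which encodes the main inducer of PD-L1, had 1, 13 and 0 reads across IgG tumors 1 to 3 against 0 reads in each anti-PD-1 tumor. Jak1, the kinase shared by the interferon receptors, had 28.9, 47.3 and 43.8 FPKM in IgG and 21.2, 18.9 and 20.9 FPKM in anti-PD-1 tumors, with no overlap and a log2 fold change of -0.91 (SE 0.21, limma adjusted p = 0.344). Jak1 lies on chromosome 4, whose median was -0.40 as given above, and it stood 0.51 below that median. Cmtm6, which keeps PD-L1 at the cell surface, lies on chromosome 9 and had 24.6, 60.6 and 42.1 FPKM in IgG and 30.6, 20.9 and 18.7 FPKM in anti-PD-1 tumors (log2 fold change -0.77, limma adjusted p = 0.420). Its relative Cmtm4 had a log2 fold change of -0.33 (limma adjusted p = 0.618), and Stat3 one of -0.08 (limma adjusted p = 0.870) at a mean of 41.3 FPKM.

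**Figure D4:**
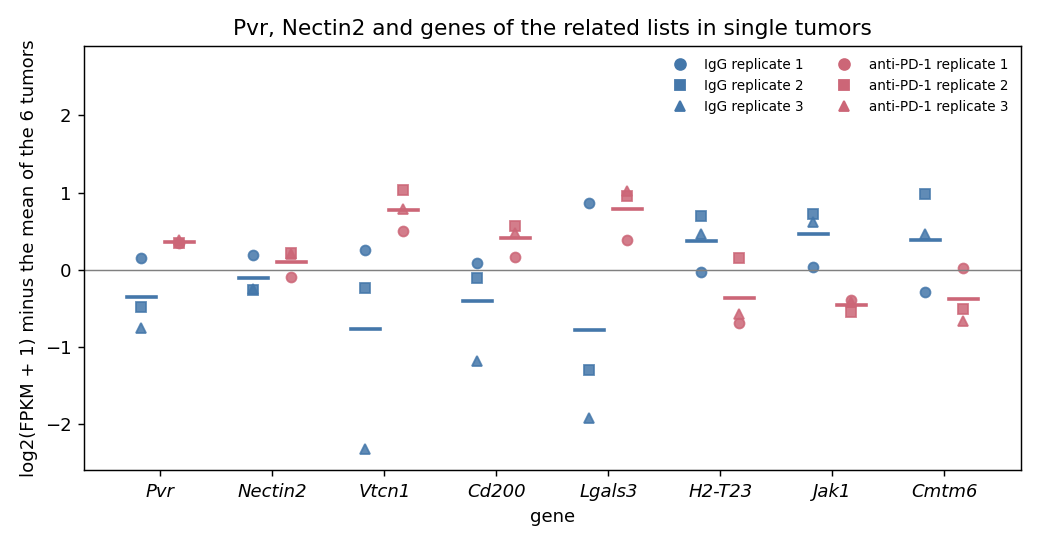
Values of Pvr, Nectin2 and 6 genes of the related lists in single tumors, as log2(FPKM + 1) minus the mean of the 6 tumors; each point is 1 tumor (IgG blue, anti-PD-1 red, shape by replicate number) and each bar the mean of 3 tumors. Pvr, Vtcn1 and Cd200 are higher and Jak1 lower in each anti-PD-1 tumor than in any IgG tumor, and the tumors overlap in the other 4 genes.

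Since these ligands are made by tumor, myeloid and lymphoid cells, marker genes of each cell type were summed in every tumor. Of 10 macrophage markers 10 had a higher mean log2 level in anti-PD-1 tumors (9 of 10 by mean FPKM), 1 of them (Cd68, named after its values were seen) at an unadjusted p under 0.05 and without overlap of the groups (against 12.3% and 18.1% of all genes), and the mean log2 level of the list was 4.23, 4.40 and 3.98 for the IgG tumors against 4.58, 4.13 and 4.78 for the anti-PD-1 tumors (two-sided exact permutation test, p = 0.3). Their summed FPKM ranged from 384 to 611 in IgG and from 419 to 807 in anti-PD-1 tumors, so that the groups overlapped. Adgre1, which encodes F4/80, had a log2 fold change of 0.01, and Lyz2, the lysozyme gene with the highest mean of that list, one of 0.31 (limma adjusted p = 0.994 and 0.762). Dendritic cell markers summed to between 5.87 and 10.1 FPKM in IgG and between 5.86 and 9.05 FPKM in anti-PD-1 tumors, with Itgax, the CD11c gene, the highest of them (log2 fold change 0.27, limma adjusted p = 0.664). Of the 9 dendritic cell markers 2 had a higher and 7 a lower mean FPKM in anti-PD-1 tumors, among them Zbtb46, a dendritic cell transcription factor, which was lower without overlap of the groups (0.374, 0.994 and 0.636 against 0.174, 0.237 and 0.287 FPKM). Zbtb46 was under the filter and was named after its values were seen. Without a filter, 12.6% of all genes had no overlap.

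T cell markers summed to between 2.24 and 6.72 FPKM in IgG and between 1.93 and 2.46 FPKM in anti-PD-1 tumors over 10 genes, of which 1 (Lck, a T cell kinase) passed the filter. Lck was lower in each anti-PD-1 tumor than in any IgG tumor, and 18.1% of all genes tested had no overlap. Its means were 1.21 FPKM with IgG and 0.593 FPKM with anti-PD-1. The log2 fold change of Lck was -0.45 (limma adjusted p = 0.482), and the pseudocount of 1 shrinks changes at such levels. Chromosome 4, on which Lck lies, had a median of -0.40, and the part of the chromosome in Lck was not tested. By mean FPKM, 4 of the 10 T cell markers (Cd2, Cd5, Cd8b1 and Foxp3) had higher values after anti-PD-1 and 6 had lower values. B and NK cell markers summed to at most 3.70 FPKM over 7 genes in any tumor, and Cd79b, the highest of them, had between 0.0635 and 1.28 FPKM. Of these 7 genes, 2 had a higher and 5 a lower mean FPKM after anti-PD-1. IgG replicate 2 held the highest sum of both lists. Epithelial markers summed to between 2272 and 3159 FPKM in IgG and between 3235 and 4106 FPKM in anti-PD-1 tumors, without overlap, with 8 of the 10 genes higher and 2 (Krt19 and Cdh1) lower by mean FPKM, whereas the mean log2 level of these 10 genes overlapped between the groups (exact permutation test, p = 0.7).

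Fibroblast markers summed to between 88.5 and 247 FPKM in IgG and between 97.1 and 354 FPKM in anti-PD-1 tumors, led by Col1a1 (limma adjusted p = 0.666). Endothelial markers, led by Cdh5 (limma adjusted p = 0.602), and adipocyte markers, led by Fabp4 (limma adjusted p = 0.756), also overlapped between the groups, and adipocyte markers summed to at most 6.96 FPKM. The part of any of these cells in the values of the ligands was not tested between the groups.

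**Figure D5:**
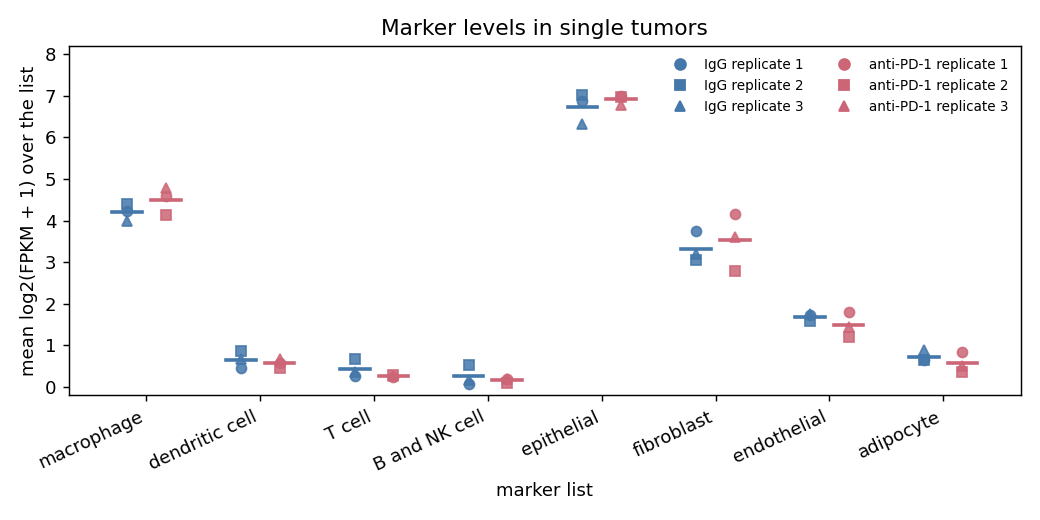
Mean log2(FPKM + 1) over each marker list (vertical axis) in single tumors; each point is 1 tumor (IgG blue, anti-PD-1 red, shape by replicate number) and each bar the mean of 3 tumors. Epithelial markers lie between 6.32 and 7.01 and T cell markers between 0.24 and 0.67, and the groups overlap in all 8 lists.

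Each of the 9 detected ligands was also set against the macrophage, T cell and epithelial marker levels over the 6 tumors, 27 relations in all, and none had an adjusted p under 0.05 (exact permutation over all pairings, Benjamini-Hochberg adjustment). The smallest unadjusted p was that of Cd80 with the T cell markers (Pearson r = 0.84, permutation p = 0.0236, adjusted p = 0.638, Spearman rho = 0.89, permutation p = 0.0333, adjusted p = 0.735, n = 6). Without the 2 tumors farthest from the median of the markers, IgG replicates 2 and 3, that r was 0.20 over the remaining 4 tumors, so the relation rests on those tumors, which hold most of the range of the markers. With Lck left out of the marker list, r over the 6 tumors was 0.89 (permutation p = 0.00556, adjusted p = 0.15). The next smallest were those of Tnfrsf14 and Nectin2 with the T cell markers (r = 0.76 and -0.63, permutation p = 0.0694 and 0.075, adjusted p = 0.670 for both). Cd274 had r = -0.63 with the macrophage markers (permutation p = 0.174, rho = -0.43, permutation p = 0.419) and r = -0.78 without the 2 farthest tumors. With the T cell markers, Cd274 had r = 0.57 (permutation p = 0.204, rho = 0.71, permutation p = 0.136) and r = 0.86 without the 2 farthest tumors. Pvr had r = 0.61 with the epithelial markers (permutation p = 0.174, rho = 0.09, permutation p = 0.919) and r = -0.39 without the 2 farthest tumors. With the T cell markers, Pvr had r = -0.64 (permutation p = 0.165, rho = -0.66, permutation p = 0.175) and r = 0.05 without the 2 farthest tumors. These relations pool both groups, without group as a term.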

How the data were processed

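RNAseq of 6 tumors was used, and groups and replicate numbers came from the sample labels. The authors deposited 1 table of FPKM per tumor. By the paper's methods the reads were trimmed with Cutadapt and aligned and counted with RSEM on mm10, and how the FPKM was made is not given in the sources used here. Of 54532 gene IDs, 54495 matched GENCODE M21 (GRCm38). FPKM times merged exon length came within 0.1 of a whole multiple of 1 read for 97.0% to 97.3% of detected values per tumor, which gave the reads and fragment totals per tumor, and reads are printed only for values that came out whole. The limit for 0 reads covers counting error only. The intervals of the log2 fold changes are those of limma and rest on the spread between the libraries.

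FPKM values were divided by median-of-ratios factors, and log2(FPKM + 1) of genes with a mean of at least 0.5 FPKM was fitted with limma 3.58.1 in R 4.3.3 (eBayes with an intensity trend), a method chosen because FPKM are not counts. The FPKM levels printed are as deposited. Single values were compared by exact permutation. The scripts were tested on simulated reads. Python 3.11.15, numpy 2.4.6, pandas 2.3.3, scipy 1.17.1 and matplotlib 3.10.9 were used for tables and figures.

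The ligands, related lists and marker lists were chosen with earlier results of these data known. Named singly were the 10 ligands, 8 receptors and cytokines fixed by name (Pdcd1, Cd28, Ctla4, Tigit, Cd226, Havcr2, Btla, Ifng), of each related list the 3 genes with the smallest p and the 2 with the highest mean, of each marker list the gene with the highest mean, and Adgre1, Cd3e, Epcam and Erbb2. Cd68, Krt7, Krt19, Zbtb46, Cdh1 and the further T cell markers were named after their values were seen. A further motif that was searched is not reported here. Alternatives were other pseudocounts, filters, scalings and limma settings, voom on recovered reads, a block for the replicate number, and fits that omit 1 tumor at a time.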

Additional observations from a re-analysis of the deposited data

How the results depend on the processing

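The direction of the log2 fold change was kept in the 9 fits on all 6 tumors with other settings and in the 6 fits without 1 tumor for Pvr, Nectin2, Lgals9, Vsir and, where they passed the filter, Cd274 and Cd86, and no ligand reached an adjusted p under 0.05 in any of them. Without 1 tumor, Tnfrsf14 ranged from -0.26 to 0.55 and Cd276 from -0.62 to 0.18, with the sign reversed for Tnfrsf14 without IgG replicate 1 (-0.26), IgG replicate 3 (-0.03) and anti-PD-1 replicate 2 (-0.06), and for Cd276 without IgG replicate 2 (0.02) and anti-PD-1 replicate 2 (0.18). The median of the ligands ranged from -0.24 to 0.0034 without 1 tumor, the higher value without IgG replicate 2, and was -0.042 with a mean of at least 2 FPKM, where Cd274 and Cd86 were not tested. The number of ligands at an unadjusted p under 0.05 lay between 0 and 1 and that of ligands without overlap between 1 and 2 without 1 tumor, while over all genes these shares ranged from 6.42% to 17.8% and from 22.9% to 35.5%. For the other co-signaling ligands the count at an unadjusted p under 0.05 was 1 without a filter, 2 with quantile normalization and between 0 and 4 without 1 tumor. For the regulators it was 2 with quantile normalization and with voom and between 1 and 2 without 1 tumor, and for the receptors 1 without a filter. Over all genes the share at an unadjusted p under 0.05 was 8.01% without a filter, 11.6% with quantile normalization and 12.7% with voom. The cause was not tested. Marker level differences and the 27 relations kept their direction at a pseudocount of 0.1, with FPKM as deposited and without the highest gene of a list.

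Deviations of same-numbered tumors from their group means correlated at -0.16, 0.005 and 0.19. Whether the numbers pair the tumors was not tested. With the replicate block the log2 fold change of Pvr was 0.72 (limma adjusted p = 0.414), and 1725 genes instead of 1848 were at an unadjusted p under 0.05. Leaving out IgG replicate 2 lowered that count to 965, and leaving out IgG replicate 1 raised it to 2688, with 12 genes then at a limma adjusted p under 0.05. Low read numbers limit Cd80, Tigit, Ctla4, Cd28 and Ifng, which had at most 35 reads in any tumor.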
